A study of Mus musculus with 6 samples.

Results

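The genes described here are 10 markers of the mural cells of blood vessels, that is, of smooth muscle cells and pericytes, measured by RNA-sequencing in satellite cells, the muscle stem cells that lie against the myofibres. They were taken by gene symbol as Myh11, Acta2, Tagln, Cnn1, Rgs5, Pdgfrb, Cspg4, Mcam, Notch4 and Des, a rule that uses no measured value, although the list was drawn up with earlier results of these data known, and are 10 of 54115 genes in the deposited tables and 10 of the 17152 genes with enough reads to be tested. All 10 were detected in all 6 libraries, with mean levels from 1.35 TPM for Cnn1 to 298 TPM for Des (TPM, the deposited level scaled for transcript length and library size). None of them passed the test for a difference between Pax7KR and Pax7WT satellite cells. Libraries of the same genotype differed from each other, with Myh11 at 19.5 to 45.5 CPM (counts scaled to library size) in Pax7WT and 17.9 to 35.9 CPM in Pax7KR. Myh11 was low in Pax7WT replicate 1 and Pax7KR replicate 3. The other contractile genes, Rgs5, Pdgfrb and Cspg4 were below their means in the same libraries. Mcam and Notch4 were below theirs in Pax7WT replicate 1 but not in Pax7KR replicate 3.

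Both groups were freshly isolated satellite cells from the uninjured hindlimb muscles of C57BL/6J mice, with 3 biological replicates of each genotype. Pax7KR mice were homozygous for a CRISPR/Cas9 knock-in that places an arginine at an acetylated lysine of PAX7, the transcription factor that defines satellite cells, and Pax7WT littermates without the change served as controls. The mice descended from founders crossed to wild-type C57BL/6J animals, and carried the allele in every cell and from birth, so mural cells, where present, carried it too. Cells were sorted as positive for α7-INTEGRIN and CD34 and negative for CD31, CD11b, SCA-1 and CD45, and 15 ng of RNA entered each library. None of the sorted surface proteins is encoded by a gene among the 10 markers, and the gate used no mural cell protein for exclusion.

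Smooth muscle cells wrap arteries and arterioles and contract through a smooth muscle myosin that pulls on alpha smooth muscle actin, under the control of serum response factor and its partner myocardin. Pericytes lie under the basement membrane of capillaries, in contact with the endothelium, and are recruited and kept there by platelet-derived growth factor B acting on its receptor PDGFRB. In muscle, both lie close to satellite cells, and several of their markers are shared with myogenic cells: desmin is the intermediate filament of muscle, and Acta2 and Tagln can be made by activated or cultured myogenic cells and fibroblasts. In these libraries of pooled sorted cells, fewer cells of a type and less RNA per cell cannot be told apart.

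Serum response factor binds the CArG box, a 10-base pattern of 2 C, 6 A or T and 2 G that reads the same on both strands and stands before many smooth muscle genes. Promoter sequences of 250 bases before the annotated start, from RefSeq on build GRCm38.p6, were read for 7 of the 10 markers, Acta2, Cnn1, Cspg4, Des, Mcam, Notch4 and Rgs5. The RefSeq starts can differ from those of the gene positions given below, which come from the GENCODE annotation. The windows of Acta2, Cnn1, Cspg4, Mcam and Notch4 run into those gene positions. An exact CArG box stood in 0 of these 7 windows, against 1.47% of all 32851 promoters of the same length, and a match with at most 1 mismatch stood in 2 of 7, against 18.6%. The 2 windows with such matches are shown because they set a contractile gene, with a pair of separate matches, beside a pericyte gene, with a pair that overlaps. Sequences run 5′ to 3′ on the strand of the gene and capitals mark the matches.
Acta2, chr19:34255374-34255623, minus strand: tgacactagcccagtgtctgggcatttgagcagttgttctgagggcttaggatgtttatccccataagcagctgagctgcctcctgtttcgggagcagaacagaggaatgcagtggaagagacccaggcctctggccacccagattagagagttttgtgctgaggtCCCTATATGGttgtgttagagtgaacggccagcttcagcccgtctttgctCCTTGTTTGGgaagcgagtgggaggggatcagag
Cspg4, chr9:56864854-56865103, plus strand: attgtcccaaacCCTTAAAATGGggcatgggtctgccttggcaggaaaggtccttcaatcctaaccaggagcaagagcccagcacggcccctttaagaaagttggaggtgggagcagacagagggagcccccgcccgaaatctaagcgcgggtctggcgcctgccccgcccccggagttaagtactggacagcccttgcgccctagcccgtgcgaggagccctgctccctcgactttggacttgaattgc
In Acta2 the matches were CCCTATATGG at bases -84 to -75 and CCTTGTTTGG at bases -34 to -25, counted back from the base before the RefSeq start. Both lie inside the gene position of Acta2 given below, chr19:34241090-34255590. In Cspg4 they were CCTTAAAATG at -238 to -229 and CTTAAAATGG at -237 to -228, which share 9 bases. Promoters with 2 or more such matches made up 2.96% of the whole set. These are letters in a window and not measured binding, and the windows without a match leave out more distant sequence.

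The question asked of each gene was whether its RNA differed between genotypes. Reads per gene were scaled to CPM, the count for a fixed number of sequenced reads, with TMM library factors and compared with the quasi-likelihood test of edgeR, adjusted over all genes tested by the Benjamini-Hochberg method with a cut-off of 0.1. By this test 0 of the 10 markers passed, as did 0 of all 17152 genes (0%). At an unadjusted p under 0.05 there were 0 markers and 803 genes (4.68%). DESeq2 called 0 markers and 30 genes (0.175%), and it gave an unadjusted p under 0.05 to 0 markers and 683 of the 17152 genes. The fitted value was lower in Pax7KR for 8 markers and higher for 2, Mcam and Notch4, with a median log2 fold change of -0.13, beside -0.004 over all genes tested.

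**Figure D1:**
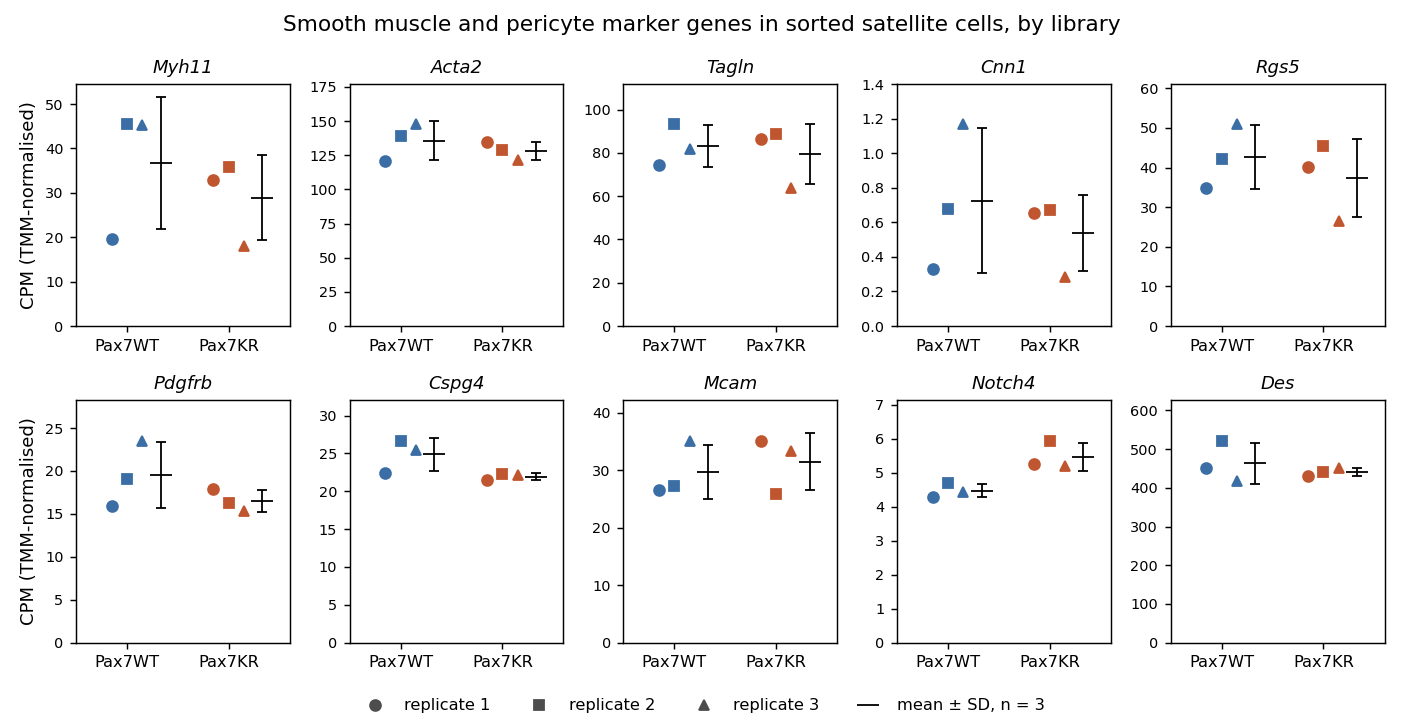
Normalised level (CPM, linear axis from 0) of each of the 10 marker genes in the 3 Pax7WT (blue) and 3 Pax7KR (orange) libraries, with 1 symbol for each replicate number and the mean ± SD (n = 3) beside each group. The genotypes overlap in 8 of the 10 panels, and Myh11 is at 19.5 CPM in Pax7WT replicate 1 and 17.9 CPM in Pax7KR replicate 3 against 32.8 to 45.5 CPM in the other libraries.

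Myh11 encodes the smooth muscle myosin heavy chain, the motor of the contractile apparatus and the most restricted of these markers to smooth muscle. It lies at chr16:14194535-14291372 (minus strand, GRCm38). Its level was 19.5, 45.5 and 45.3 CPM in Pax7WT replicates 1, 2 and 3, and 32.8, 35.9 and 17.9 CPM in Pax7KR replicates 1, 2 and 3. Each genotype thus held 1 library well under the rest, and the groups overlapped over most of their range. The fitted log2 fold change, Pax7KR over Pax7WT, was -0.34 (SE 0.47, 95% interval -1.62 to 0.94, adjusted p = 0.998), an interval from 0.325 to 1.92 on the linear scale. The coefficient of variation was 40.6% in Pax7WT and 33.2% in Pax7KR, beside a common biological variation of 13.8% fitted over all genes.

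Acta2 (chr19:34241090-34255590, minus strand), the alpha smooth muscle actin whose promoter is printed above, was steadier. It stood at 120.4, 138.9 and 147.8 CPM in Pax7WT and at 134.4, 128.7 and 121.5 CPM in Pax7KR. All 3 Pax7KR values lay within the Pax7WT range. Between the genotypes the log2 fold change was -0.08 (SE 0.08, 95% interval -0.25 to 0.09, adjusted p = 0.998), so that the interval ran from 0.842-fold to 1.06-fold.

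Tagln (chr9:45929619-45936058, minus strand) encodes transgelin, an actin-binding protein of smooth muscle. Its level was 74.3, 93.3 and 81.9 CPM in Pax7WT and 86.2, 88.5 and 63.7 CPM in Pax7KR. The lowest library was Pax7KR replicate 3, and the other Pax7KR libraries lay inside the Pax7WT range. Its log2 fold change was -0.06 (SE 0.14, 95% interval -0.40 to 0.27, adjusted p = 0.998). Its sign turned to 0.074 without Pax7KR replicate 3 and to 0.027 without Pax7WT replicate 2.

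Cnn1 (chr9:22099216-22109630, plus strand) encodes calponin 1, which binds actin and restrains the myosin ATPase in smooth muscle. It was close to the limit of these libraries, with 9, 12 and 24 reads in Pax7WT and 15, 16 and 6 reads in Pax7KR, or 0.33, 0.68 and 1.17 CPM against 0.66, 0.67 and 0.28 CPM. Pax7KR replicate 3 was again the lowest. On so few reads the log2 fold change was -0.41 (SE 0.62, 95% interval -1.75 to 0.93, adjusted p = 0.998), and it turned to 0.13 without Pax7WT replicate 3. On the linear scale the interval ran from 0.297-fold to 1.90-fold, so differences of this size were not detectable at this depth.

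Rgs5 encodes a regulator of G protein signalling that is abundant in pericytes. Per transcript length its range overlapped that of Mcam, and both had higher means than the other pericyte markers. It lies at chr1:169655501-169695813 on the plus strand. It stood at 34.8, 42.1 and 51.0 CPM in Pax7WT and at 40.2, 45.4 and 26.5 CPM in Pax7KR. As for Myh11 and Tagln, Pax7KR replicate 3 was the lowest library and the groups overlapped. The log2 fold change was -0.19 (SE 0.25, 95% interval -0.82 to 0.44, adjusted p = 0.998), and without Pax7KR replicate 3 it was 0.010.

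Pdgfrb (chr18:61045150-61085061, plus strand) encodes the receptor through which endothelial platelet-derived growth factor B holds pericytes at the vessel. Its level was 15.9, 19.0 and 23.5 CPM in Pax7WT and 17.9, 16.3 and 15.4 CPM in Pax7KR. The Pax7WT libraries spanned the wider range and covered 2 of the 3 Pax7KR values. For Pdgfrb the log2 fold change was -0.23 (SE 0.14, 95% interval -0.53 to 0.07, adjusted p = 0.992), and it stayed below 0 when each library in turn was left out (-0.37 to -0.08).

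Cspg4 (chr9:56865033-56899870, plus strand), the chondroitin sulphate proteoglycan NG2 of the pericyte surface, was 1 of the 2 markers without overlap between the groups. Its 22.4, 26.7 and 25.5 CPM in Pax7WT all exceeded the 21.4, 22.2 and 22.2 CPM in Pax7KR. The gap between the lowest Pax7WT and the highest Pax7KR library was small, at 22.4 against 22.2 CPM. This gave a log2 fold change of -0.18 (SE 0.10, 95% interval -0.39 to 0.04, adjusted p = 0.992), and the range without each library in turn was -0.25 to -0.12.

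Over all genes tested, 1773 (10.3%) had groups that did not overlap, beside 2 of the 10 markers, Cspg4 (lower in every Pax7KR library) and Notch4 (higher in every Pax7KR library). With 3 libraries against 3, an exact permutation test of a single gene cannot go below a p of 0.1.

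Mcam (chr9:44134469-44142727, plus strand) encodes CD146, an adhesion molecule of pericytes, smooth muscle and endothelium. It stood at 26.5, 27.3 and 35.1 CPM in Pax7WT and at 35.1, 25.8 and 33.4 CPM in Pax7KR. Both groups held high and low libraries. As for Myh11 and Rgs5, Pax7WT replicate 1 was below the mean of the 6 libraries and Pax7WT replicate 3 above it, but Mcam lay below its mean in Pax7KR replicate 2 and above it in Pax7KR replicate 3, where the others did the opposite. For Mcam the log2 fold change was 0.09 (SE 0.14, 95% interval -0.22 to 0.39, adjusted p = 0.998), with the sign turned to -0.0030 without Pax7KR replicate 1.

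Notch4 (chr17:34564268-34588503, plus strand) encodes a Notch receptor known mainly from endothelium, and its place among mural markers is shared with that cell type. It had 117, 83 and 91 reads in Pax7WT and 120, 142 and 110 reads in Pax7KR, or 4.30, 4.69 and 4.43 CPM against 5.25, 5.95 and 5.20 CPM. All Pax7KR libraries were above all Pax7WT libraries. The log2 fold change was 0.29 (SE 0.20, 95% interval -0.13 to 0.71, adjusted p = 0.992), and it ran from 0.23 to 0.33 without each library in turn.

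The direction for Notch4 depended on how transcript length was handled. Once the average transcript length of each library entered the fit as an offset, the log2 fold change was -0.58 in edgeR and -0.59 in DESeq2 (adjusted p = 0.961 and 0.932). Nearly all Notch4 reads belonged to the full-length transcript Notch4-201, of 6591 bases, with 108, 72.9 and 80.1 estimated reads in Pax7WT and 112, 142 and 107 in Pax7KR. The short processed transcript Notch4-210, of 619 bases, held 9.37, 10.1 and 5.49 estimated reads in Pax7WT and 7.85, 0 and 1.77 in Pax7KR. Other short transcripts held 4 reads (Notch4-204) and 1.42 reads (Notch4-206) in Pax7WT replicate 3 and 1 read (Notch4-209) in Pax7KR replicate 3. The average length over all transcripts of the gene was 2331, 1823 and 2175 bases in Pax7WT and 2746, 5955 and 3730 bases in Pax7KR. The part of these short transcripts in the change of direction was not tested by leaving out their lengths. On Notch4-201 alone, a choice made after seeing the data, the log2 fold change was 0.41 (SE 0.20, edgeR adjusted p = 0.993).

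Of 16 endothelial markers, 15 had a fitted value higher in Pax7KR, as for the reads of Notch4, and 1 (Cldn5) lower, 0 passed the cut-off in edgeR or DESeq2, 0 had an unadjusted p under 0.05 in edgeR and 2 had one in DESeq2, and the median log2 fold change was 0.40, beside -0.004 over all genes. Their summed level was 163 to 209 TPM in Pax7WT and 179 to 267 in Pax7KR, and none was at 0. Pecam1, which encodes the sort marker CD31, stood at 20.7, 22.0 and 42.2 CPM in Pax7WT and 34.5, 50.4 and 26.9 CPM in Pax7KR. Over the 6 libraries Notch4 and the mean of these markers on the log2(CPM + 1) scale had a Pearson r of 0.71 (exact permutation p = 0.114) and a Spearman rho of 0.83 (exact permutation p = 0.0583), and r was -0.10 without the 2 libraries farthest from the median of Notch4. The part of endothelial RNA in the Notch4 value was not tested.

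Des (chr1:75360329-75368579, plus strand) encodes desmin, the intermediate filament of smooth, cardiac and skeletal muscle, which satellite cells also make. It was the most abundant of the 10, at 451.8, 522.2 and 417.4 CPM in Pax7WT and 429.9, 441.2 and 450.7 CPM in Pax7KR. The Pax7KR libraries sat close together inside the Pax7WT range. Its log2 fold change was -0.07 (SE 0.08, 95% interval -0.24 to 0.10, adjusted p = 0.998), and 0.019 without Pax7WT replicate 2.

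**Figure D2:**
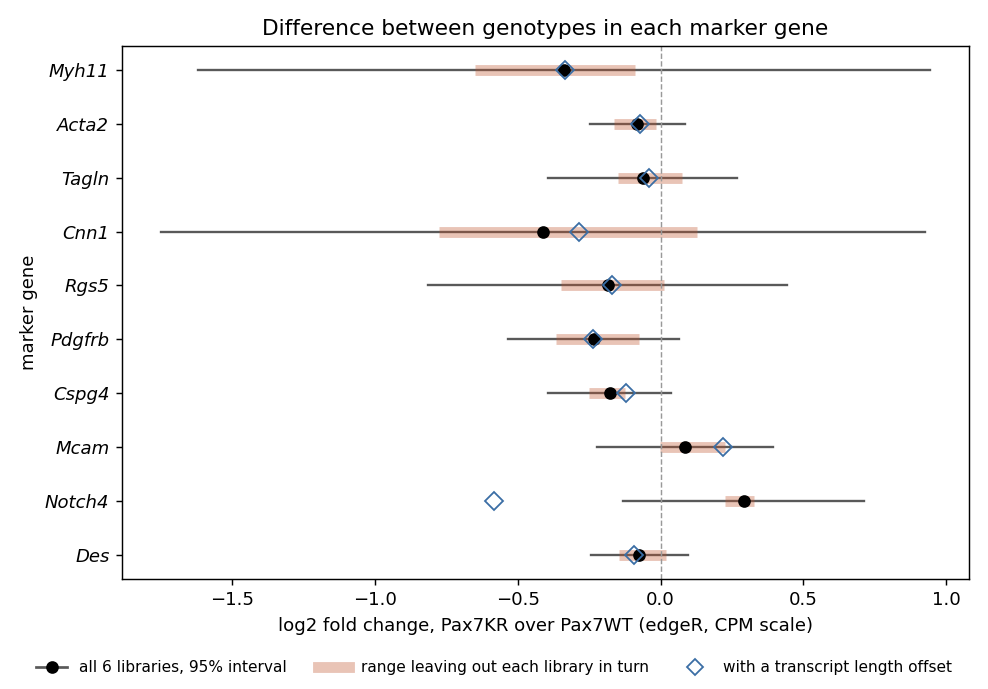
Log2 fold change of each marker gene, Pax7KR over Pax7WT, from edgeR (black point) with its 95% interval (grey line), the range when each of the 6 libraries was left out in turn (orange bar) and the value with a transcript length offset (open diamond). All 10 intervals cross 0, those of Myh11 and Cnn1 are the widest, and for Notch4 the diamond lies at -0.58 against 0.29 for the point.

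The levels of the markers relative to each other were compared in TPM, which divides by transcript length. Des stood at 298 ± 14.3 TPM (SD, n = 6) and was above every other marker in all libraries. Acta2 at 149 ± 11.9 TPM and Tagln at 131 ± 21.5 TPM followed, with ranges that overlapped. Mcam at 19.5 ± 4.14 TPM and Rgs5 at 16.7 ± 3.60 TPM came next, then Myh11 at 8.38 ± 2.99 TPM, Cspg4 at 6.16 ± 0.35 TPM and Pdgfrb at 5.59 ± 0.89 TPM, and from Mcam down to Pdgfrb each range overlapped the next. Notch4 at 2.92 ± 0.84 TPM and Cnn1 at 1.35 ± 0.31 TPM were the lowest, and their ranges overlapped. Both levels depend on how few reads were assigned to transcripts of unlike length. Notch4 was lowest in Pax7KR replicate 2 (1.69 TPM, 142 reads) and highest in Pax7WT replicate 2 (4.09 TPM, 83 reads). All Cnn1 reads of Pax7WT replicate 1 were assigned to the processed transcript Cnn1-204, of 647 bases, beside 2381 bases for Cnn1-201. No order can be read between neighbours whose ranges overlap.

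The contractile genes were therefore present at very unequal levels. Acta2 exceeded Myh11 by 14.0-fold to 30.7-fold in TPM, with the widest ratios in Pax7WT replicate 1 (26.3) and Pax7KR replicate 3 (30.7), the libraries in which Myh11 was low. Tagln exceeded Cnn1 by 63.2-fold to 123-fold, although Cnn1 rested on 6 to 24 reads. Among all genes tested, 4.73% had a higher mean TPM than Acta2 and 5.46% a higher one than Tagln, against 55.5% for Myh11 and 75.1% for Cnn1.

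**Figure D3:**
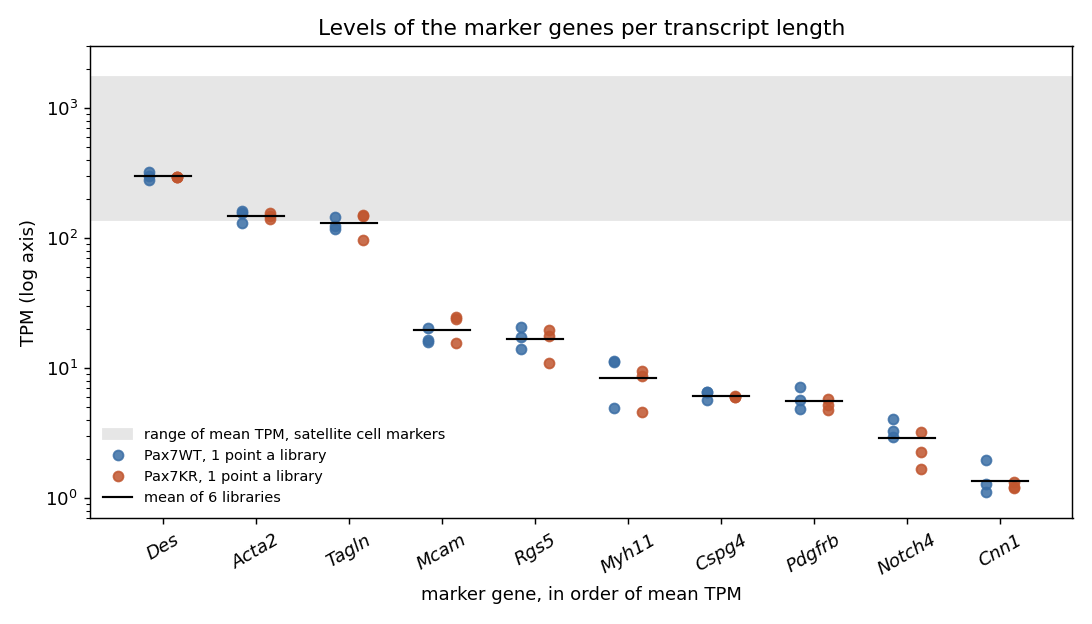
Level of each marker gene in TPM on a log axis, in order of its mean over the 6 libraries (black line), with 1 point for each Pax7WT (blue) and Pax7KR (orange) library and the range of the mean TPM of 14 satellite cell markers in grey. Des (298 TPM) and Acta2 (149 TPM) lie inside the grey range, which begins at 137 TPM, and the other 8 markers lie below it.

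The libraries carried the signature of satellite cells. All 14 satellite cell markers had a mean level above 100 TPM, from 137 to 1724 TPM, led by Chodl and Spry1 at 1724 and 1026 TPM, and Pax7 itself stood at 542 ± 35.4 TPM (SD, n = 6) and its log2 fold change was -0.05 (SE 0.08). This count of Pax7 does not report on the knock-in, which changes a codon and not the gene's presence. Of the sort genes, Itga7 and Cd34 stood at 184 and 440 TPM, and Pecam1, Ly6a, Itgam and Ptprc at 16.8, 18.4, 0.32 and 0.24 TPM. Depth ran from 17822367 to 27908054 estimated reads per library, and these intervals and counts of 3 libraries set the precision of every comparison.

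The smooth muscle list held the 4 contractile markers and 6 further genes. Its summed level was 310.3 to 372 TPM in Pax7WT and 292 to 372 TPM in Pax7KR, most of it Acta2 and Tagln, and without these 4 markers it was 55.4 to 56.4 TPM and 48.6 to 57.6 TPM. The fitted value was higher in Pax7KR for 3 of its 10 genes and lower for 7, with a median log2 fold change of -0.09. Without the 4 markers, 3 were higher and 3 lower. The groups overlapped for all 10. Of its 10 genes 4 had a mean under 1 TPM. Those low genes, named here after their values were seen, were Lmod1 (16 to 57 reads), Actg2 (0 to 7 reads), Kcnmb1 (1 to 16 reads) and Myocd (2 to 5 reads). Lmod1, the leiomodin of smooth muscle, had 1.07, 2.37 and 2.78 CPM in Pax7WT and 1.62, 2.05 and 0.76 CPM in Pax7KR, with its low values in the libraries where Myh11 was low.

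The pericyte list of 12 genes summed to 723 to 797 TPM in Pax7WT and 692 to 763 TPM in Pax7KR. Most of this was Notch3 (501 TPM), a Notch receptor that satellite cells also carry, and Vtn (175 TPM), which encodes vitronectin, and the 4 pericyte markers together gave 40.6 to 54.9 TPM and 45.6 to 54.3 TPM. The fitted value was higher in Pax7KR for 2 of the 12 genes and lower for 10, with a median log2 fold change of -0.14. None had an unadjusted p under 0.05 in edgeR. The groups did not overlap for 3 of the 12, all lower in Pax7KR, beside 10.3% of all genes tested. Without the 4 pericyte markers, 1 gene was higher and 7 lower. Of the 12 genes 2 were lower than 1 TPM, Higd1b (0 to 6 reads) and Foxs1 (8 to 14 reads). Kcnj8 and Abcc9, which encode the subunits of the potassium channel of pericytes, were present at 11.3 and 11.8 TPM. These 4 genes were named after their values were seen. The list thus held genes at low levels beside Notch3 and Vtn at high ones, and the cell type that each level came from was not tested.

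**Figure D4:**
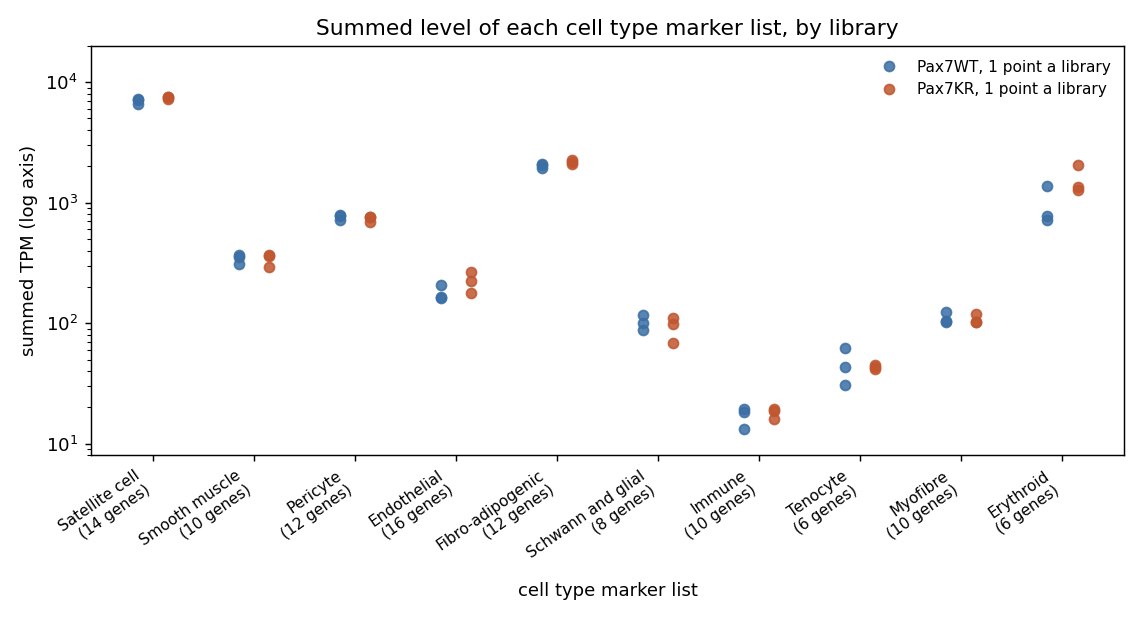
Summed TPM (log axis) of each list of cell type markers in the 3 Pax7WT (blue) and 3 Pax7KR (orange) libraries, with the number of genes of each list below it. The satellite cell list sums to 6607 to 7567 TPM, the pericyte list to 692 to 797 TPM and the smooth muscle list to 292 to 372 TPM, and the genotypes overlap for every list but those of satellite cells and fibro-adipogenic cells, where all Pax7KR sums are above all Pax7WT sums.

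The fitted values per gene did not follow these sums. Of the 14 satellite cell markers 6 had a fitted value higher and 8 lower in Pax7KR, with a median log2 fold change of -0.01, and the 12 fibro-adipogenic markers split into 5 above and 7 below 0 (median -0.03). Other cell types were read by the same means. The fibro-adipogenic list of 12 genes summed to 1944 to 2077 TPM in Pax7WT and 2080 to 2248 TPM in Pax7KR. This came mainly from Gsn, Col3a1 and Dpt, at 757, 627 and 623 TPM, whereas Pdgfra, also on the list, stood at 0.72 TPM. Dpt was named after its values were seen. The Schwann and glial list summed to 88.6 to 116 TPM and 69.1 to 111 TPM, with Mbp at 37.5 TPM. The myofibre list summed to 102 to 123 TPM and 103 to 118 TPM, led by Atp2a1 and Acta1 at 29.8 and 21.7 TPM. The tenocyte list, led by Scx and Mkx at 12.7 and 11.2 TPM, summed to 30.8 to 62.7 TPM and 41.9 to 44.8 TPM.

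The immune list summed to 13.3 to 19.6 TPM in Pax7WT and 16.0 to 19.5 TPM in Pax7KR, led by Lyz2 and Cd68 at 8.13 and 4.79 TPM, with Cd3e at 0 in all libraries. The erythroid list, led by Hba-a2 and Hbb-bs at 533 and 430 TPM, summed to 720 to 1387 TPM and 1264 to 2055 TPM, with 6 of 6 genes higher in Pax7KR and a median log2 fold change of 0.69. None of the genes of these cell type lists passed the cut-off in edgeR or in DESeq2. Those with an unadjusted p under 0.05 in edgeR, beside 4.68% of all genes tested, were Ngfr and C1qa. Both were named after their values were seen. Ngfr, of the Schwann list, was lower in Pax7KR. C1qa, of the immune list, had 1, 1 and 1 reads in Pax7WT and 8, 4 and 9 reads in Pax7KR. It thus passed the filter of 5 reads in 2 libraries only through Pax7KR, and no difference is read from it. The part of these cell types in the values of the 10 markers was not tested.

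The libraries low in Myh11 were low in several of the other markers. Against their own means over the 6 libraries on the log2(CPM + 1) scale, Myh11, Acta2, Tagln, Cnn1 and Rgs5 deviated by -0.63, -0.13, -0.12, -0.27 and -0.17 in Pax7WT replicate 1, and by -0.75, -0.11, -0.34, -0.32 and -0.55 in Pax7KR replicate 3. Of the 10 markers 5 were lowest in Pax7KR replicate 3 and 2 in Pax7WT replicate 1. In Pax7WT replicate 1, Mcam at -0.18, Notch4 at -0.17, Pdgfrb at -0.15 and Cspg4 at -0.06 were also below their means, and Des at 0.003 was not. Pdgfrb at -0.20 and Cspg4 at -0.07 were below theirs in Pax7KR replicate 3 too. Mcam at 0.14, Notch4 at 0.06 and Des at -0.001 did not share the fall in Pax7KR replicate 3. Pax7WT replicate 1 was the deepest library, at 27908054 reads, and Pax7KR replicate 3 held 21307368, close to the median of 21898244. The endothelial mean deviated by -0.42 and -0.21 in these libraries, and the part of vessel-derived RNA was not tested.

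**Figure D5:**
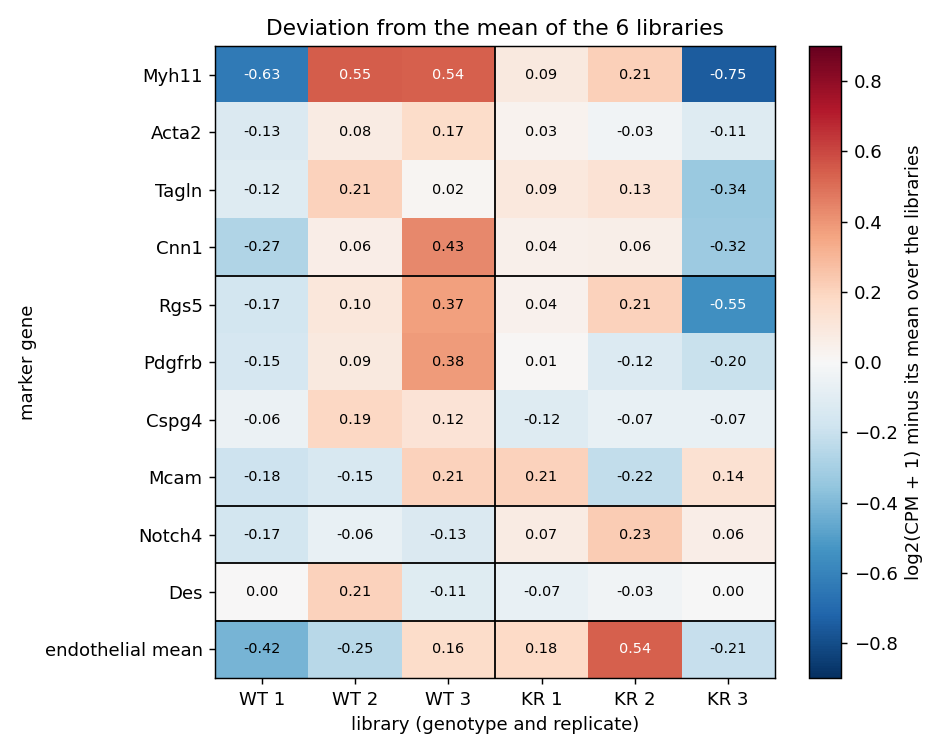
Heat map of the deviation of each marker gene, and of the mean of 16 endothelial markers, from its own mean over the 6 libraries, in log2(CPM + 1), with the 3 Pax7WT and 3 Pax7KR libraries as columns and the values printed in the cells. Myh11 spans -0.75 to 0.55, WT 1 and KR 3 are blue for the 4 contractile genes, Rgs5 and Pdgfrb, and Des spans only -0.11 to 0.21.

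Of 55 relations computed over the 6 libraries, between each pair of markers and between each marker and the endothelial mean, 9 had an unadjusted Pearson p under 0.05 and 5 an adjusted Pearson p under 0.1, all at 0.0917. The smallest adjusted Spearman p was 0.229, so no relation held by rank after adjustment. The pairs with Cnn1, here and below, rest on its 6 to 24 reads a library, or 0.28 to 1.17 CPM. Acta2 and Pdgfrb had r = 0.95 (exact permutation p = 0.00278) and rho = 0.94 (exact permutation p = 0.0167), with r = 0.99 without the 2 libraries farthest from the median of Acta2. Acta2 and Cnn1 had r = 0.95 (exact permutation p = 0.00833) and rho = 0.89 (exact permutation p = 0.0333), and r = 0.85 without 2 libraries. For both pairs the libraries left out were Pax7WT replicates 1 and 3, and Pax7KR replicate 3 stayed in.

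In the 3 other pairs r fell further when the 2 libraries farthest on the first-named gene were left out. These were Pax7WT replicate 1 and Pax7KR replicate 3 for Myh11, and Pax7WT replicate 3 and Pax7KR replicate 3 for Cnn1. Since different libraries were removed, the pairs cannot be set against each other by these values. For Myh11 and Cnn1 r was 0.90 (exact permutation p = 0.00556) and rho 0.94 (exact permutation p = 0.0167), but r was 0.58 without the 2 farthest libraries. For Myh11 and Rgs5 r was 0.89 (exact permutation p = 0.00833) and rho 0.83 (exact permutation p = 0.0583), and r was 0.53 without 2. For Cnn1 and Pdgfrb r was 0.92 (exact permutation p = 0.00417) and rho 0.94 (exact permutation p = 0.0167), and r was 0.65 without 2. With each genotype's own mean subtracted, the 5 pairs had r from 0.88 to 0.96, and 3 libraries of a genotype are too few for a value within each.

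Likeness over the 6 libraries was taken to the mean log2 level of Myh11, Acta2, Tagln and Cnn1. The levels were not scaled before averaging, so Myh11, which deviated by -0.75 to 0.55, weighed most in this mean. The genes most like it, among 10831 with a mean of 5 CPM or more, were Amdhd2 (r = 1.00), Sdf2, Myl9, Trim32 and Acad11. Myl9, the regulatory light chain of smooth muscle myosin, had r = 0.99, with 11.2, 16.7 and 18.6 CPM in Pax7WT and 14.3, 15.3 and 11.0 CPM in Pax7KR. Among the 5 genes most like the mean of Rgs5, Pdgfrb, Cspg4 and Mcam were Gm20604 (r = 0.99), Trappc6a, Wdr25 and Poll. With 6 libraries and this many candidates, these are descriptions and were not tested.

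The reads of several markers were split over more than 1 transcript. Myh11 was made as 3 protein-coding transcripts, and the share of Myh11-204 was 73.3%, 53.9% and 48.5% of Myh11 reads in Pax7WT and 21.9%, 56.0% and 78.3% in Pax7KR. Myh11-201 took 20.8%, 36.6% and 41.9% in Pax7WT and 52.4%, 21.0% and 19.3% in Pax7KR. The 2 libraries with the least Myh11 thus had the highest share of Myh11-204, while Pax7KR replicate 1 stood apart with the lowest. These transcripts share most of their sequence, so the split is an estimate.

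Acta2 was mainly Acta2-201, at 81.9% to 86.0% of its reads, with the shorter Acta2-202 making up the rest. Tagln-201 took 80.1% to 87.6% of Tagln reads, Cspg4-201 took 73.4% to 80.4% of Cspg4 reads beside transcripts with a retained intron, and Des-201 took 95.3% to 97.4% of Des reads. Rgs5 was on Rgs5-201 alone, and Pdgfrb on Pdgfrb-201 apart from 30.8 reads of Pdgfrb-202 in Pax7WT replicate 1. Mcam was divided into Mcam-201 (56.8% to 73.8%) and Mcam-202 (19.7% to 38.4%). A short Mcam transcript with a retained intron, Mcam-203, had 4.86, 2.97 and 0 reads in Pax7WT and 36.7, 0 and 46.4 reads in Pax7KR, and was thus at 0 in 1 library of each genotype.

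Sequence shared with other genes was slight. Of the 31-base stretches of each gene's transcripts, 1.39% of those of Acta2 and 0.905% of those of Myh11 occur in another gene, mostly in Gm6375 and in Myh9, and the share was between 0% and 0.202% for the other 8. Actb and Actg1, the cytoskeletal actins, were the most abundant of the paralogues at 1437 and 1678 TPM, with log2 fold changes of -0.03 (SE 0.08) and 0.06 (SE 0.09).

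Further genes of the mural programme were read as lists by function. Of 23 contractile and cytoskeletal genes, 0 passed the cut-off in either direction in edgeR, 11 were higher and 12 lower in Pax7KR, and the median log2 fold change was -0.002. The most abundant were Cnn3, a calponin found outside smooth muscle, at 1066 TPM and Vim, the intermediate filament vimentin, at 596 TPM. Actn1, an actin cross-linker, stood at 70.0, 74.4 and 68.9 CPM in Pax7WT and 81.6, 88.0 and 80.5 CPM in Pax7KR, a log2 fold change of 0.23 (SE 0.07, edgeR adjusted p = 0.992). Synpo2, an actin-bundling protein, stood at 96.9, 109.2 and 95.5 CPM in Pax7WT and 91.0, 89.8 and 87.6 CPM in Pax7KR, with -0.17 (SE 0.07, edgeR adjusted p = 0.992). At an unadjusted p under 0.05 these were the only 2 of the 23 genes in edgeR, beside 4.68% of all genes tested. DESeq2 also had 2 at that p, and it called 0. The groups did not overlap for either gene, nor for 1 other gene of the list, Pln, which was lower in Pax7KR, so that 3 of the 23 genes did not overlap, beside 10.3% of all genes tested.

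Of 16 regulators of the smooth muscle programme, 15 were tested, 0 passed and 0 had an unadjusted p under 0.05 in edgeR or DESeq2, 8 were higher and 7 lower, and the median was 0.003. Nkx3-2, a homeobox gene, was at 0 reads in all libraries. Srf, which encodes serum response factor, stood at 84.2 ± 15.6 TPM (SD, n = 6), whereas Myocd, its smooth muscle partner myocardin, stood at 0.10 TPM from 2 to 5 reads. These 2 genes were named after their values were seen. Rhoa, the small GTPase upstream of actin polymerisation, was at 281 TPM, and its log2 fold change was -0.07 (SE 0.06).

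Klf4, a repressor of smooth muscle differentiation genes, varied widely, at 350.8, 186.7 and 330.6 CPM in Pax7WT and 180.4, 195.1 and 252 CPM in Pax7KR, with -0.47 (SE 0.31, edgeR adjusted p = 0.992). Tead1, a transcription factor of the Hippo pathway, stood at 52.7, 32.9 and 47.0 CPM in Pax7WT and 99.0, 57.7 and 47.8 CPM in Pax7KR, with 1 Pax7KR library well above the rest and a log2 fold change of 0.62 (SE 0.37, edgeR adjusted p = 0.992). Foxo4, a forkhead factor, stood at 104.4, 101.6 and 97.9 CPM in Pax7WT and 105.7, 112.8 and 108.1 CPM in Pax7KR, without overlap. Its log2 fold change was 0.10 (SE 0.06, edgeR adjusted p = 0.992). Of the 15 regulators tested, 2 were higher and 1 lower in Pax7KR without overlap, beside 10.3% of all genes tested.

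Of 22 further pericyte and mural cell genes, 0 passed, 3 had an unadjusted p under 0.05 in edgeR (Rgs4, Gja5 and Anpep, all higher in Pax7KR), beside 4.68% of all genes tested, and 4 in DESeq2, 10 were higher and 12 lower in Pax7KR, and the median was -0.06. The most abundant were Heyl, an effector of Notch signalling, at 321 TPM and Vtn at 175 TPM. Rgs4, a relative of Rgs5 found in pericytes and neurons, stood at 72.4, 75.1 and 90.4 CPM in Pax7WT and 103.6, 111.8 and 87.4 CPM in Pax7KR, a log2 fold change of 0.35 (SE 0.11, edgeR adjusted p = 0.992). Gja5, the gap junction protein connexin 40 of arterial endothelium, stood at 1.62, 2.09 and 2.73 CPM in Pax7WT and 3.15, 5.74 and 2.88 CPM in Pax7KR, without overlap, with 0.88 (SE 0.33, edgeR adjusted p = 0.992). Of the 22 genes 2 were higher and 2 lower in Pax7KR without overlap, beside 10.3% of all genes tested. Rgs4 was thus higher in 2 of 3 Pax7KR libraries than in any Pax7WT library, and Rgs5 was not.

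Of 18 partners of PDGF and Notch signalling in mural cells, 0 passed. In edgeR 1 had an unadjusted p under 0.05 (Rbpj), beside 4.68% of all genes tested, and in DESeq2 1 did. Of the 18 genes 10 were higher and 8 lower in Pax7KR, and the median was 0.04. Notch3 at 501 TPM and Hes1, a Notch target, at 338 TPM were the most abundant, so that Notch4 at 2.92 TPM was a minor Notch receptor here. Rbpj, the DNA-binding partner of all Notch receptors, stood at 221.7, 212.2 and 209.6 CPM in Pax7WT and 190.2, 197.9 and 189.5 CPM in Pax7KR, without overlap, with -0.16 (SE 0.06, edgeR adjusted p = 0.992). Of the 18 genes 1 was higher and 1 lower in Pax7KR without overlap, beside 10.3% of all genes tested. Hey1, another Notch target, had 0.20 (SE 0.10, edgeR adjusted p = 0.992).

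Of 10 paralogues of the actins and of Rgs5, 9 were tested and 0 passed. In edgeR 2 had an unadjusted p under 0.05, beside 4.68% of all genes tested, and in DESeq2 2 did. The 2 in edgeR were Rgs2 and Rgs4, the latter already counted among the further mural cell genes. Of the 9 genes 5 were higher and 4 lower in Pax7KR, and the median was 0.03. Rgs2, which dampens Gq signalling, stood at 61.9, 49.2 and 70.7 CPM in Pax7WT and 45.4, 38.4 and 50.4 CPM in Pax7KR, with -0.44 (SE 0.15, edgeR adjusted p = 0.992). Rgs2 was lower and Rgs4 higher in the mean of the Pax7KR libraries, and neither passed the test over all genes.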

How the data were processed

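RNA of freshly isolated satellite cells was sequenced from directional libraries, 3 for Pax7WT and 3 for Pax7KR. Per the submitters' processing notes and the study's methods, the authors assigned read pairs to GENCODE transcripts on GRCm38 with Salmon (version 1.3.0) and compared genotypes with DESeq2 (version 1.28.1). The authors deposited estimated counts, not normalized, together with TPM values and effective lengths in bases. Their own comparison (fold changes, p-values) was not used.

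Estimated counts of a gene's transcripts were added and rounded. Of 140992 transcripts, 139791 matched a prior GENCODE release of that build, and those unmatched held 0.592% to 0.634% of reads. The filter kept genes reaching 5 reads in at least 2 libraries. The test was edgeR (version 4.0.16, R 4.3.3) with TMM, robust quasi-likelihood and genotype alone, two-sided, at an adjusted p of 0.1 over all genes. SEs come from the F statistic. CPM use TMM library sizes, and relations use log2(CPM + 1) with 720 permutations. DESeq2 (version 1.42.0) served as an alternative. The fit was tested on simulated data.

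The genes and lists were chosen with earlier results of these data known. Named genes were all 10 markers, the 2 most abundant and the 2 of smallest unadjusted p of each function list, the 2 most abundant of each cell type list, Pax7, the sort genes and the 5 most alike for each group of markers, of which some are not reported here. Replicates are biological per the series' design, but p-values measure only the spread between these libraries. Shared sequence was counted over 31-base stretches in Python 3.11.15.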

Additional observations from a re-analysis of the deposited data

How the results depend on the processing

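No alternative brought any of the 10 markers past the cut-off, and adjusted p-values over all alternatives ran from 0.863 to 1.000. The fitted direction of 4 markers (Myh11, Acta2, Pdgfrb and Cspg4) turned in none of them. For Notch4 it turned with a transcript length offset, to -0.58 in edgeR and -0.59 in DESeq2. Leaving out Pax7WT replicate 2 turned Tagln to 0.027 and Des to 0.019, leaving out Pax7WT replicate 3 turned Cnn1 to 0.13, leaving out Pax7KR replicate 1 turned Mcam to -0.0030, and leaving out Pax7KR replicate 3 turned Tagln to 0.074 and Rgs5 to 0.010. Over all 6 such fits Myh11 ran from -0.65 (without Pax7WT replicate 1) to -0.09 (without Pax7KR replicate 3), Acta2 from -0.16 (without Pax7WT replicate 1) to -0.016 (without Pax7WT replicate 3), Tagln from -0.15 to 0.074, Cnn1 from -0.78 to 0.13, Rgs5 from -0.35 to 0.010, Mcam from -0.0030 to 0.22 and Des from -0.14 to 0.019. Cnn1 could not be fitted under the stricter filter of 10 reads in every library of a genotype, since it has too few reads.

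The count of all genes past the cut-off moved more, from 0 to 30 with DESeq2, 45 with DESeq2 and the length offset, and 157 with no filter, and from 1 to 32 when each library was left out. With the replicate block it was 13, and no marker passed. Libraries with the same number did not deviate together (correlations -0.06 to 0.04), so the numbers were not taken as pairs. Another normalization (RLE), the stricter filter, a cut-off of 0.05, edgeR with the length offset and the most abundant transcript alone, the last of these added after seeing the data, kept it at 0. The causes were not tested. Depth limits Cnn1 and Notch4, which rest on 6 to 142 reads a library.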

Other observations

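Ednra, the endothelin receptor of vascular smooth muscle, stood apart in 1 library among the further mural cell genes, and is named here after its values were seen. It had 53, 89 and 68 reads in Pax7WT and 17, 467 and 21 reads in Pax7KR, or 1.95, 5.02 and 3.31 CPM against 0.74, 19.6 and 0.99 CPM. Pax7KR replicate 2 thus held the highest value and the other Pax7KR libraries the lowest, and the log2 fold change was 1.08 (SE 1.48, edgeR adjusted p = 0.998). Acta2, Myh11 and Rgs5 were not raised in the same way in that library, at 128.7, 35.9 and 45.4 CPM. The mean of the 16 endothelial markers was at its highest there, at 0.54 above its mean over the 6 libraries on the log2(CPM + 1) scale, and Egfl7 among them stood at 11.6 CPM against 3.32 to 5.51 CPM in the other libraries. The part of endothelial RNA in the Ednra value was not tested.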
